A study of Mus musculus with 8 samples.

Results

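The 10 genes described here encode lipoprotein lipase (LPL), the proteins that mature, anchor and inhibit it, and the proteins that carry the released fatty acids into and through the cell. They are Lpl, Lmf1, Gpihbp1, Angptl4, Vldlr, Cd36, Slc27a1, Fabp3, Fabp4 and Fabp5, chosen by name for these roles out of the 31053 Ensembl genes of the count table. LPL is made by adipocytes and muscle fibres, folded with the help of LMF1 and carried by GPIHBP1 across capillary endothelial cells to their luminal face, where it hydrolyses the triglycerides of circulating lipoproteins. ANGPTL4 inactivates LPL, VLDLR binds triglyceride-rich lipoproteins, CD36 and the transport protein FATP1 (Slc27a1) take up fatty acids, and the fatty acid binding proteins FABP3, FABP4 and FABP5 carry them in the cytosol. Brown adipose tissue (BAT) is known as a large consumer of lipoprotein triglycerides, which it takes up by this route.

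BAT of 4 WT and 4 Ucp1Δ/Δ mice was profiled by bulk RNA-seq, and the comparison asks how the tissue responds when adipocytes lack the lipase ATGL. Ucp1Δ/Δ mice, called ATGLKO in the labels, come from a cross of Pnpla2 fl/fl with Ucp1-Cre mice, so that Pnpla2, which encodes ATGL, is deleted where Ucp1 is active, that is in brown adipocytes rather than in the vessels, macrophages or muscle within the tissue. All mice were on the C57BL6/J background, male according to the study's methods and fed a normal diet. Those methods also describe tissue harvest after fasting, without saying whether this covered the mice used here. Whether WT mice carried the floxed allele or the Cre was not given in the sources used here. The labels give an age of 10 weeks, from which the age in the study's text differs. As cell type the labels name the stromal vascular fraction, which holds the cells other than adipocytes, beside the tissue. The adipocyte genes Adipoq (1087 ± 283 CPM, SD, n = 4, in WT mice) and Ucp1 (2719 ± 1281 CPM, SD, n = 4) were nevertheless abundant in these libraries, so RNA of adipocytes was present.

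Total counts per mouse ranged from 2017697 to 3115956 in WT and from 2240612 to 2941799 in Ucp1Δ/Δ mice, of which mitochondrially encoded genes took 38.4% to 45.6% and 39.1% to 42.6%. Levels are given as CPM, the count scaled to the library size after TMM scaling, and 3 counts correspond to 0.963 to 1.49 CPM without that scaling, a floor that covers counting error only. Each level is compared between mice for 1 gene at a time. Levels were not compared between genes, because the values were not set per transcript length. Pnpla2 ranged from 2702 to 3152 CPM in WT and from 403 to 531 CPM in Ucp1Δ/Δ mice, so the libraries followed their genotype labels. Of the 8930 genes with enough counts to be tested, 21.0% differed between the genotypes at an adjusted p under 0.05 (quasi-likelihood F test of edgeR, Benjamini-Hochberg adjusted over all genes tested), 13.3% higher and 7.63% lower in Ucp1Δ/Δ mice.

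In Ucp1Δ/Δ BAT, transcripts of the lipoprotein receptor Vldlr and of the fatty acid transporter Slc27a1 fell to 43.1% and 48.7% of the WT mean. Transcripts of the LPL anchor Gpihbp1 and of the binding protein Fabp3 rose 1.48-fold and 2.04-fold. Lpl itself, its maturation factor Lmf1, its inhibitor Angptl4, Cd36, Fabp4 and Fabp5 did not pass the test. Thus 4 of the 10 genes were called, 2 in each direction, beside 21.0% of all genes tested. The CPM values of the genotypes did not overlap for 5 of the 10, namely Gpihbp1, Vldlr, Slc27a1, Fabp3 and Fabp4, beside 23.7% of all genes tested. The median log2 fold change (log2FC) of the 10 genes was -0.14, that of all genes tested -0.01, and 5 of the 10 lay above 0. In bulk tissue, fewer cells of a type and less RNA per cell cannot be told apart, which holds for each of these values.

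**Figure D1:**
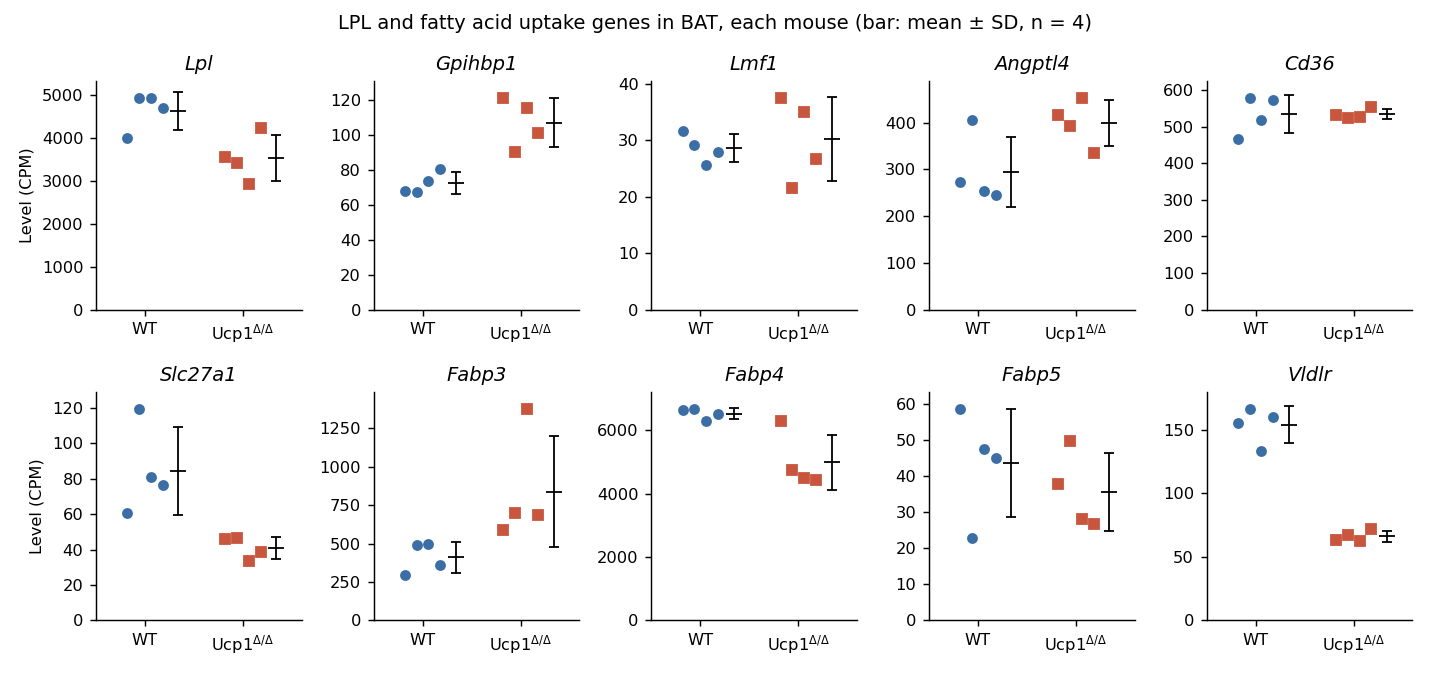
Level in CPM (linear axis from 0) of each of the 10 genes in the BAT of each mouse, WT beside Ucp1Δ/Δ, with a bar at the mean and an error bar of 1 SD (n = 4). The Vldlr values of Ucp1Δ/Δ mice (62.7 to 72.1 CPM) all lie under those of WT mice (133 to 167 CPM), whereas the Cd36 values overlap around a mean of 534 CPM in both genotypes.

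Lpl (ENSMUSG00000015568, chr8:68880491-68907448 on the plus strand of GRCm38, the mm10 build, protein coding) was among the more deeply counted of these genes, with 6998 to 14744 counts per mouse. WT replicates 1 to 4 had 3989, 4929.9, 4924 and 4700.0 CPM of Lpl. The Ucp1Δ/Δ replicates had 3557, 3405, 2924 and 4227 CPM. Ucp1Δ/Δ replicate 4 lay above the lowest WT mouse, so the genotypes overlapped in this single pair of mice. The mean level was 4636 ± 444 CPM (SD, n = 4) in WT and 3528 ± 538 CPM (SD, n = 4) in Ucp1Δ/Δ mice, or 76.1% of WT. The log2FC of -0.39 (SE 0.17) did not pass the test (edgeR, Benjamini-Hochberg adjusted p = 0.121). With DESeq2's Wald test Lpl was called lower, with a log2FC of -0.43 and an adjusted p of 0.0277.

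Lmf1 (ENSMUSG00000002279, chr17:25579085-25662826, plus strand) encodes the endoplasmic reticulum protein that LPL needs to fold. Its level was 28.6 ± 2.47 CPM in WT and 30.2 ± 7.45 CPM in Ucp1Δ/Δ mice (SD, n = 4 each). With 55 to 106 counts per mouse, the log2FC was 0.08 (SE 0.21, edgeR, adjusted p = 0.833), and the genotypes overlapped.

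Gpihbp1 (ENSMUSG00000022579, chr15:75596628-75599481, plus strand) encodes the protein that holds LPL on capillary endothelial cells. In WT mice its level was 67.8, 67.2, 73.8 and 80.5 CPM (replicates 1 to 4). In Ucp1Δ/Δ mice it was 121, 89.9, 115 and 101 CPM, so each of them lay above each WT mouse. Gpihbp1 rose from 72.3 ± 6.23 CPM to 107 ± 14.1 CPM (SD, n = 4 each), a log2FC of 0.56 (SE 0.16, edgeR, adjusted p = 0.0234). The direction was the same in every alternative run. The call was however lost without WT replicate 1 (adjusted p = 0.0747), WT replicate 3 (0.0617), Ucp1Δ/Δ replicate 1 (0.0707) or Ucp1Δ/Δ replicate 3 (0.0612), and with a filter of at least 1 count in any mouse (0.0534).

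Markers of endothelial cells were set beside Gpihbp1. Of 13 listed, 12 were tested and 2 were called higher, Tie1 (log2FC 0.81) and Ptprb (0.78), with 0 lower, beside 13.3% higher over all genes tested. The other 10 were not called, and 1 of them, Emcn, had a negative log2FC (-0.41). The defining endothelial marker Pecam1 had a log2FC of 0.52 (edgeR, adjusted p = 0.0647). The summed level of the list ran from 318 to 407 CPM in WT and from 428 to 516 CPM in Ucp1Δ/Δ mice, without overlap. Set against that sum within each mouse, the log2 ratio of Gpihbp1 was -2.25 ± 0.107 in WT and -2.12 ± 0.207 in Ucp1Δ/Δ mice (SD, n = 4 each), and the genotypes overlapped. The difference in this ratio was 0.13, and the log2FC in CPM was 0.56. The part of endothelial cell number in the Gpihbp1 values was not tested.

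Angptl4 (ENSMUSG00000002289, chr17:33773750-33781830, minus strand), a target of peroxisome proliferator-activated receptors that is induced by fasting, encodes a secreted inhibitor of LPL. WT replicates 1 to 4 had 274, 405, 253 and 245 CPM of Angptl4. The Ucp1Δ/Δ replicates had 417, 393, 453 and 336 CPM. WT replicate 2 lay within the range of the Ucp1Δ/Δ mice, and the other 3 WT mice lay under it. The mean was 294 ± 74.5 CPM in WT and 399 ± 49.1 CPM in Ucp1Δ/Δ mice (SD, n = 4 each), a log2FC of 0.44 (SE 0.19, edgeR, adjusted p = 0.114). The gene was called higher without WT replicate 2 (log2FC 0.62, adjusted p = 0.0108), with scaling by total counts only (0.58, adjusted p = 0.0316) and with limma voom (0.53, adjusted p = 0.0215).

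Since Gpihbp1, Angptl4 and Vldlr act with or beside LPL, each was also set against Lpl within a mouse, as the ratio of their counts, which does not depend on how libraries are scaled. Such a ratio also reflects the lengths of both transcripts, so that only its change between mice can be read. The count of Gpihbp1 was 1.71%, 1.37%, 1.5% and 1.72% of that of Lpl in WT replicates 1 to 4. In Ucp1Δ/Δ replicates 1 to 4 it was 3.41%, 2.65%, 3.95% and 2.39%. Every Ucp1Δ/Δ mouse thus had more Gpihbp1 transcript for each Lpl transcript than every WT mouse. The log2 ratio was higher by 0.95 (SE 0.18) in Ucp1Δ/Δ mice (exact permutation test, two-sided p = 0.0286, the lowest possible with 4 mice against 4, adjusted p = 0.0476 over 5 ratios). Gpihbp1 did not overlap between genotypes and the mean of Lpl was lower, so this p-value adds little to the values of both genes. The adjusted p also depends on the ratio of Fabp3 to Fabp4, which was bound to separate the mice.

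The ratio of Vldlr to Lpl moved the other way. It was 3.90%, 3.38%, 2.71% and 3.41% in the WT mice, against 1.79%, 1.97%, 2.15% and 1.71% in the Ucp1Δ/Δ mice, without overlap. On the log2 scale it differed by -0.81 (SE 0.13, two-sided exact permutation test, p = 0.0286, adjusted p = 0.0476). The decrease of Vldlr was therefore larger than the lower mean of Lpl in the same mice. The adjusted p of Vldlr to Lpl likewise depends on the ratio of Fabp3 to Fabp4. For Angptl4, the ratio to Lpl ran from 5.15% to 8.21% in WT and from 7.95% to 15.5% in Ucp1Δ/Δ mice. WT replicate 2 lay just above Ucp1Δ/Δ replicate 4, and the log2 difference of 0.86 (SE 0.26) did not pass the test (two-sided exact permutation test, p = 0.0571, adjusted p = 0.0714).

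**Figure D2:**
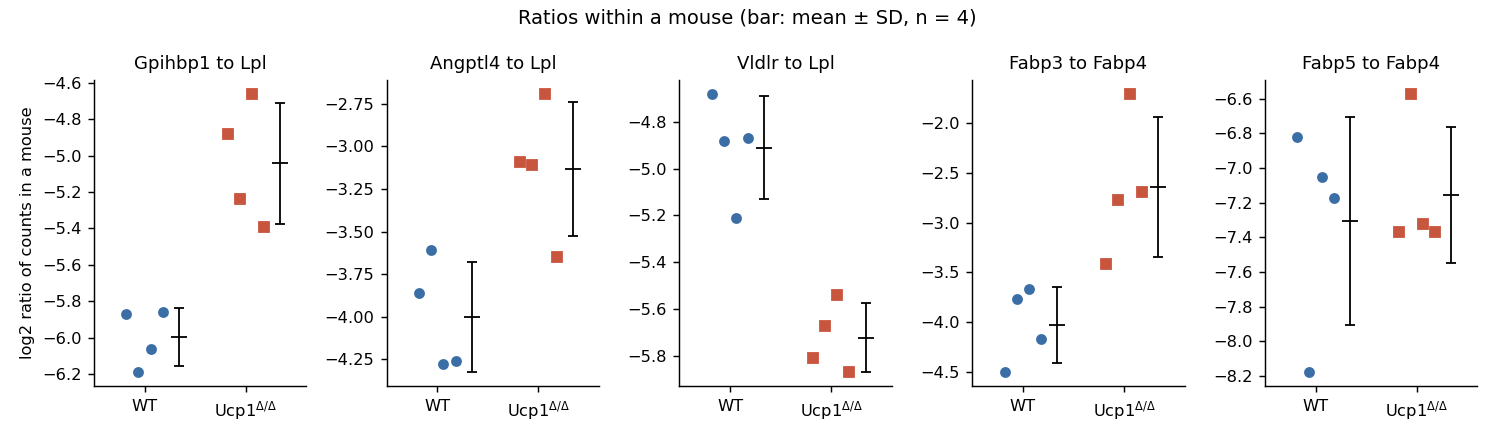
log2 ratio of the counts of pairs of genes within each mouse, WT beside Ucp1Δ/Δ, with a bar at the mean and an error bar of 1 SD (n = 4). Gpihbp1 to Lpl and Fabp3 to Fabp4 are higher and Vldlr to Lpl is lower in each Ucp1Δ/Δ mouse than in each WT mouse, whereas Angptl4 to Lpl and Fabp5 to Fabp4 overlap.

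Vldlr (ENSMUSG00000024924, chr19:27216484-27254231, plus strand) had the smallest adjusted p of the 10 genes. The receptor it encodes binds apolipoprotein E and brings triglyceride-rich lipoproteins close to LPL. Vldlr was counted at 156, 167, 133 and 160.1 CPM in the WT replicates. Its Ucp1Δ/Δ values were 63.3, 66.9, 62.7 and 72.1 CPM, so that the genotypes were far apart and the spread within each was small. Vldlr fell from 154 ± 14.5 CPM to 66.3 ± 4.32 CPM (SD, n = 4 each), a log2FC of -1.21 (SE 0.16, edgeR, adjusted p = 5.61e-05). It was called lower in every alternative run, with a log2FC from -1.29 to -1.18 when each mouse was left out in turn.

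Slc27a1 (ENSMUSG00000031808, chr8:71568882-71587302, plus strand) encodes FATP1, a fatty acid transport protein of adipocytes and muscle with acyl-CoA synthetase activity. WT replicates 1 to 4 had 60.7, 119.6, 80.8 and 76.5 CPM of Slc27a1. The Ucp1Δ/Δ replicates had 46.0, 46.4, 33.4 and 38.6 CPM. All Ucp1Δ/Δ mice were lower than all WT mice, and WT mice differed among themselves more than Ucp1Δ/Δ mice did. Slc27a1 fell from 84.4 ± 25.0 CPM to 41.1 ± 6.23 CPM (SD, n = 4 each), a log2FC of -1.03 (SE 0.21, edgeR, adjusted p = 0.00221), and was called in every alternative run. The other fatty acid transport proteins tested, Slc27a2 and Slc27a4, had log2FC of -0.02 and 0.12 and were not called.

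General adipocyte markers were mostly lower. Of 8 listed and tested, 7 had a log2FC under 0, and the median of the list was -0.53. At an adjusted p under 0.05, 3 were called lower, 1 higher and 4 not called, beside 7.63% lower and 13.3% higher over all genes tested. The genes that fell were Adipoq, which encodes adiponectin (log2FC -0.82, edgeR, adjusted p = 0.00606), and the lipid droplet protein genes Plin1 (-0.91) and Cidec (-1.01). The only marker with a positive log2FC, the leptin gene Lep, rose from 2.0 ± 3.08 CPM to 54.2 ± 10.8 CPM (SD, n = 4 each, edgeR, adjusted p = 8.51e-06). The sum of the list ran from 4271 to 6313 CPM in WT and from 2887 to 4386 CPM in Ucp1Δ/Δ mice, which overlap. Set against that sum within each mouse, Vldlr was lower by a log2 ratio of -0.64 without overlap between genotypes, and Slc27a1 was lower by -0.43 with overlap. By the same measure Lpl and Fabp4, both adipocyte genes, differed by 0.17 each and overlapped. The most abundant marker of that sum, Cfd (mean 1620 CPM in WT mice), was not called (log2FC -0.35) and fell less than Cidec, Plin1 and Adipoq. These ratios therefore also depend on which markers weigh most in the sum. The part of adipocyte number in these results was not tested.

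The sequences just before the annotated gene starts of Vldlr and Slc27a1, the genes that fell, are shown beside one of Cd36, whose difference was nearest to 0. The Cd36 window precedes a start that lies inside the gene as annotated, downstream of its outermost 5′ end. They are 250 bases long, 5′ to 3′ on the strand of the gene, taken from RefSeq on GRCm38.p6, and hold no annotated exon. Of the 10 genes, 5 had an entry in the promoter table used. Capitals mark AGGTCA (the hexamer bound by nuclear receptors), TATAAA (the core of the TATA element), GGGCGG (bound by SP1) and CCAAT (bound by NF-Y), searched on both strands, so that TGACCT marks the hexamer read on the other strand.
Vldlr, chr19:27216234-27216483, plus strand: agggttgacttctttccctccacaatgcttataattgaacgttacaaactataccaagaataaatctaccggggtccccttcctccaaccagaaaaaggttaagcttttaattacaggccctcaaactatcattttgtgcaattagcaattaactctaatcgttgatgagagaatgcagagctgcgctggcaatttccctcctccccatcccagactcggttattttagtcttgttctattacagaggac
Slc27a1, chr8:71568621-71568870, plus strand: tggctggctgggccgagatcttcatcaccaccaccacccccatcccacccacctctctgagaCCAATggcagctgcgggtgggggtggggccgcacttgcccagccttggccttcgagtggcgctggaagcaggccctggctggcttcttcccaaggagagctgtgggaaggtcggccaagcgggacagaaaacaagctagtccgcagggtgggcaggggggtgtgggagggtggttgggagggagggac
Cd36, chr5:17835897-17836146, minus strand: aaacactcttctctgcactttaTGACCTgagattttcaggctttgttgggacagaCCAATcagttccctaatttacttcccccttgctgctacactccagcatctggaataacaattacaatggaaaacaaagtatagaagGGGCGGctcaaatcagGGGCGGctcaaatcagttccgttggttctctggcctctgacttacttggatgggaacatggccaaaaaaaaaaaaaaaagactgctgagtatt
The Vldlr window shown held none of these letters, that of Slc27a1 held 1 CCAAT, and that of Cd36 held 1 TGACCT, 1 CCAAT and 2 GGGCGG. The promoter table also lists windows of further starts, 1 for Vldlr and 2 for Slc27a1, which are not shown. That of Vldlr, which overlaps an exon, held 1 GGGCGG and 1 CCAAT. Those of Slc27a1 held 1 GGGCGG in the window that overlaps an exon, and 3 GGGCGG with 1 CCAAT in the window that does not. Among 32851 promoter windows of the same length, 14% held the hexamer, 12.4% TATAAA, 32.7% GGGCGG and 33.8% CCAAT. The direct repeat of the hexamer with 1 base between its copies, the element of peroxisome proliferator-activated receptors, was found in 0.0335% of all windows and in none of these 3. The base composition differed, with 41.6% G or C for Vldlr, 66.4% for Slc27a1 and 43.2% for Cd36. These matches describe letters in the windows shown and no binding was measured.

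Cd36 (ENSMUSG00000002944, chr5:17781690-17888801, minus strand) encodes the scavenger receptor that takes up long-chain fatty acids in adipocytes, endothelial cells and macrophages. Its level was 467, 578, 517 and 572 CPM in WT replicates 1 to 4. Ucp1Δ/Δ mice had 533, 524, 526 and 554 CPM, all within the WT range. The log2FC was 0.0015 (SE 0.15, edgeR, adjusted p = 0.995), and its sign depended on the processing. Macrophage markers rose over the same mice, 10 of the 12 tested, and their summed level ran from 107 to 148 CPM in WT and from 779.8 to 1258 CPM in Ucp1Δ/Δ mice. Bulk counts do not tell which cells the Cd36 transcripts came from.

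Fabp3 (ENSMUSG00000028773, chr4:130308595-130315463, plus strand) encodes the fatty acid binding protein of heart and muscle, which BAT also makes. Fabp3 stood at 293, 489, 496 and 361 CPM in WT replicates 1 to 4. It stood at 590.1, 696, 1378 and 686 CPM in the Ucp1Δ/Δ replicates. Each Ucp1Δ/Δ mouse was higher than each WT mouse, and replicate 3 was far above the other Ucp1Δ/Δ mice. Fabp3 rose from 409.8 ± 99.4 CPM to 838 ± 363 CPM (SD, n = 4 each), a log2FC of 1.03 (SE 0.26, edgeR, adjusted p = 0.00968). Without Ucp1Δ/Δ replicate 3 the log2FC was 0.69, and the gene was still called (adjusted p = 0.0312). Exons of Fabp3 overlap those of Zcchc17 on the opposite strand, which had 682 counts over all mice. Whether counting used strand was not given in the sources used here, so the count of Fabp3 is uncertain to that extent.

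Because skeletal muscle expresses Fabp3, the muscle markers of each library were examined. Their summed level was 1890, 129, 29.4 and 887 CPM in WT replicates 1 to 4 and 454, 2681, 91.1 and 1183 CPM in Ucp1Δ/Δ replicates 1 to 4. In WT mice Fabp3 was lower where the muscle sum was higher, though by a small margin between replicate 3 (496 CPM) and replicate 2 (489 CPM). In Ucp1Δ/Δ mice no such order held. Replicate 3 had the least muscle RNA and the most Fabp3, but replicate 1, next lowest in muscle sum, had the least Fabp3 (590.1 CPM). Replicate 2, with the highest muscle sum, had 696 CPM of Fabp3. The part of muscle RNA in the Fabp3 values was not tested. Of 12 muscle markers 11 were tested, and 0 were called with edgeR. With the 2 mice of highest muscle markers left out of each genotype, the log2FC of Fabp3 was 1.01, but the call was lost with 2 mice per genotype (adjusted p = 0.0554). The 10 brown adipocyte markers, of which 1 was called higher and 2 lower, summed to 6569 to 16293 CPM in WT and 5715 to 9538 CPM in Ucp1Δ/Δ mice. Set against that sum within each mouse, Fabp3 was higher by a log2 ratio of 1.52, without overlap, beside its log2FC of 1.03 in CPM. The most abundant marker of that sum, Cidea (mean 5948 CPM in WT mice), was itself called lower (log2FC -1.16). The ratio therefore also reflects the decrease of Cidea.

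Fabp4 (ENSMUSG00000062515, chr3:10204088-10208576, minus strand) encodes the major fatty acid binding protein of adipocytes. WT replicates 1 to 4 had 6632, 6684, 6291 and 6517 CPM of Fabp4. The Ucp1Δ/Δ replicates had 6289.8, 4740.2, 4506 and 4425 CPM. The highest Ucp1Δ/Δ mouse, replicate 1, almost reached the lowest WT mouse, and the other 3 lay well under it. The mean level was 6531 ± 175 CPM in WT and 4990.3 ± 877 CPM in Ucp1Δ/Δ mice (SD, n = 4 each), or 76.4% of WT. The log2FC of -0.39 (SE 0.17, edgeR, adjusted p = 0.127) did not pass the test. It was called lower without Ucp1Δ/Δ replicate 1 (log2FC -0.51, adjusted p = 0.0460) and with DESeq2's Wald test (-0.42, adjusted p = 0.0268).

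Fabp5 (ENSMUSG00000027533, chr3:10012548-10016607, plus strand), the epidermal fatty acid binding protein, lies on the same chromosome as Fabp4. Its level was 43.5 ± 15 CPM in WT and 35.6 ± 10.7 CPM in Ucp1Δ/Δ mice (SD, n = 4 each), with 51 to 160 counts per mouse. The log2FC of -0.28 (SE 0.27, edgeR, adjusted p = 0.512) was not called. Fabp5 has processed pseudogene copies in the genome, and reads that match several of them make its count uncertain.

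The cytosolic binding proteins therefore did not move together. The count of Fabp3 was 4.42%, 7.32%, 7.88% and 5.55% of that of Fabp4 in WT replicates 1 to 4 and 9.38%, 14.7%, 30.6% and 15.5% in the Ucp1Δ/Δ replicates. The log2 ratio was higher by 1.38 (SE 0.40) in Ucp1Δ/Δ mice without overlap (two-sided exact permutation test, p = 0.0286, adjusted p = 0.0476). Since neither gene overlapped between genotypes and they moved in opposite directions, this ratio was bound to separate the mice. Its p-value therefore adds nothing to the values of the 2 genes. The log2 ratio of Fabp5 to Fabp4 differed by 0.15 (SE 0.36, two-sided exact permutation test, p = 0.771), and the genotypes overlapped.

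**Figure D3:**
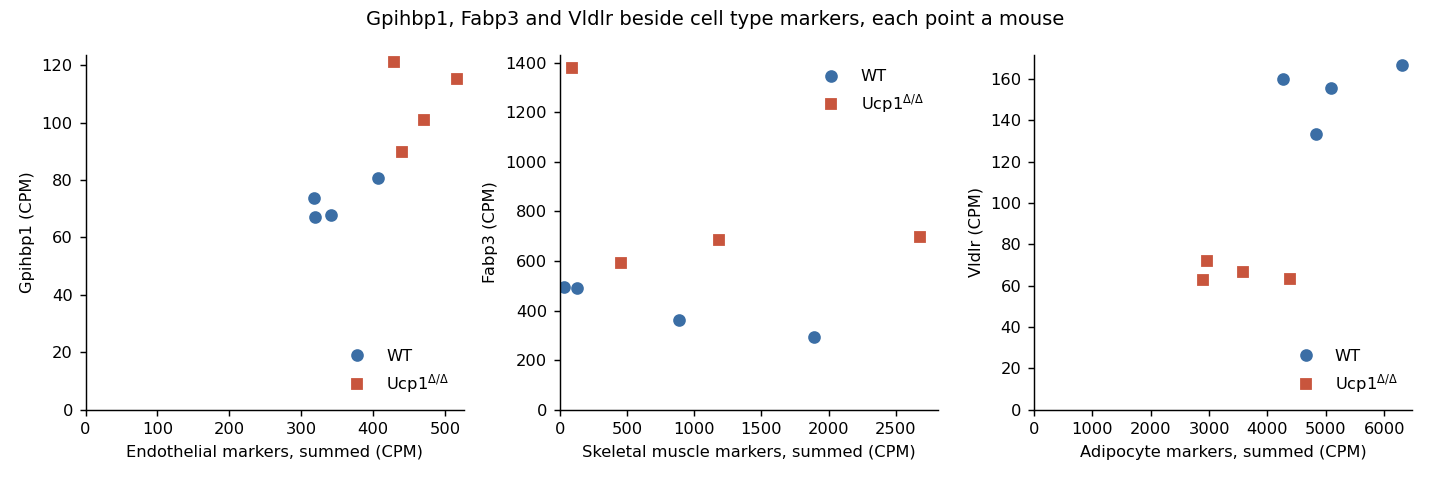
Level in CPM of Gpihbp1, Fabp3 and Vldlr against the summed CPM of endothelial, skeletal muscle and adipocyte markers, each point being 1 mouse and both axes linear from 0. Endothelial sums and Gpihbp1 are both higher in Ucp1Δ/Δ mice, and Vldlr separates the genotypes where the adipocyte sums overlap. Over the WT mice Fabp3 is lower where the muscle sum is higher, in part by a small margin, and over the Ucp1Δ/Δ mice no such order holds.

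Other genes of the pathway were examined as a list of 60, of which 36 had enough counts to be tested. At an adjusted p under 0.05, 9 of the 36 were higher and 5 lower in Ucp1Δ/Δ mice, and 22 were not called (edgeR), beside 13.3% higher and 7.63% lower over all genes tested. The median log2FC of the 36 was 0.20, against -0.01 for all genes tested. The other 24 had at most 89 counts over all mice and were not tested.

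Among the cofactors and inhibitors of LPL, 3 were tested and all 3 were called. Angptl8, which takes part in the inhibition of LPL after feeding, fell from 29.2 ± 9.22 CPM to 5.61 ± 1.25 CPM (SD, n = 4 each), a log2FC of -2.37 (SE 0.27, edgeR, adjusted p = 2.0e-05). Apoc1, an apolipoprotein that inhibits LPL, fell from 547 ± 224 CPM to 181 ± 38.7 CPM (log2FC -1.59, edgeR, adjusted p = 0.000448). Both are inhibitors, whereas Angptl4 was not called and had a positive log2FC. Apoe, whose protein is a ligand of VLDLR and is made by macrophages among other cells, rose from 1591 ± 54.3 CPM to 2722 ± 106 CPM (log2FC 0.77, edgeR, adjusted p = 0.00149). None of these 3 overlapped between genotypes. They are among 14 of the 36 tested pathway genes without overlap, beside 23.7% of all genes tested.

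Lipoprotein receptors went in different directions. Besides Vldlr, the endocytic receptor gene Lrp1 rose from 50.1 ± 8.46 CPM to 95.8 ± 15.4 CPM (log2FC 0.94, edgeR, adjusted p = 0.00162). Sorl1, a sorting receptor that binds LPL, fell from 12.4 ± 1.75 CPM to 4.44 ± 1.05 CPM (log2FC -1.46, edgeR, adjusted p = 0.00122). The HDL receptor gene Scarb1 had a log2FC of 0.08 and was not called.

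Of 6 genes of caveolae and the glycerol channel, 2 rose. These were Cavin1, from 637 ± 125 CPM to 1282 ± 266 CPM (log2FC 1.01, edgeR, adjusted p = 0.00155), and Cavin2, from 199 ± 42.5 CPM to 477 ± 45.9 CPM (log2FC 1.26, adjusted p = 0.000115). Cavins coat caveolae, the membrane pits in which CD36 is found. Cav1, Cav2 and the glycerol channel gene Aqp7 were not called, with log2FC of 0.09, 0.21 and 0.53. Of 4 tested genes of endothelial fatty acid delivery, Nrp1, which encodes a coreceptor for VEGF, rose from 140.4 ± 13.1 CPM to 266 ± 30.0 CPM (log2FC 0.92, edgeR, adjusted p = 0.000653). Among the 2 other fatty acid binding proteins tested, Got2, a mitochondrial aminotransferase also known as the plasma membrane fatty acid binding protein, rose (log2FC 0.94, adjusted p = 0.00109), and the acyl-CoA binding protein gene Dbi fell (-0.62, adjusted p = 0.0418).

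The remaining roles held single calls. Lipa, the lysosomal acid lipase, was the only tested gene of the lipases related to LPL, and it rose with a log2FC of 0.99 (edgeR, adjusted p = 0.00829). Of 7 tested genes of LPL maturation, secretion and cleavage, Pcsk5, a proprotein convertase able to cleave LPL, rose with a log2FC of 0.83 (edgeR, adjusted p = 0.0206). Of 6 nuclear receptors that control members of this pathway, Ppara fell from 203 ± 48.6 CPM to 94.9 ± 34.2 CPM (SD, n = 4 each, log2FC -1.10, edgeR, adjusted p = 0.00476), with overlap between genotypes. Pparg, the adipogenic receptor, had a log2FC of -0.33 (adjusted p = 0.219). Macrophage and stromal progenitor markers moved with these lists. Of the stromal markers 8 of the 9 tested were higher, with sums from 379 to 580.03 CPM in WT and from 1167 to 2315 CPM in Ucp1Δ/Δ mice, and their part in the pathway genes that rose was not tested.

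**Figure D4:**
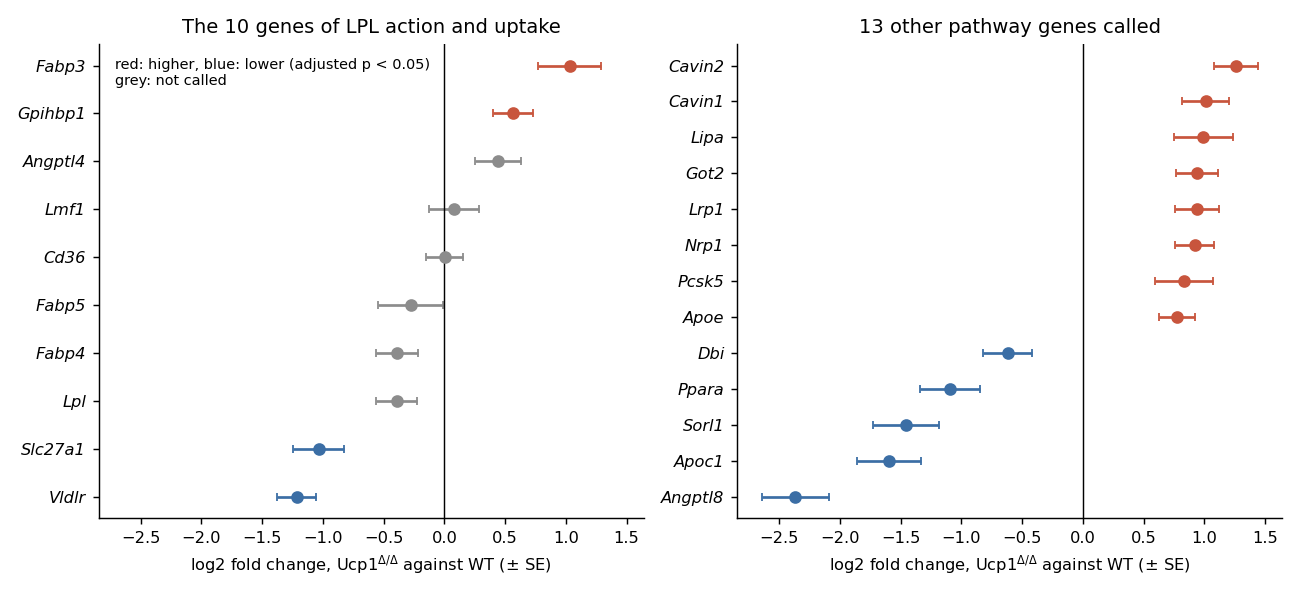
log2 fold change, Ucp1Δ/Δ against WT, with SE from edgeR's quasi-likelihood fit, for the 10 genes and for 13 of the other genes of the pathway that were called. Vldlr (-1.21) and Slc27a1 (-1.03) lie at the lower end of the 10 genes and Fabp3 (1.03) at the upper end, and the other genes of the pathway run from Angptl8 (-2.37) to Cavin2 (1.26).

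The genes whose pattern over the 8 mice was most like that of Lpl, Fabp3 and Vldlr were looked for among 6428 genes with a mean of at least 10 CPM, by the mean absolute difference of log2 CPM after each gene was centred on its WT mean. Nearest to Lpl were Slc1a3 (0.0617), Rad23b (0.0807) and Anapc16 (0.0887). Nearest to Vldlr were Chpt1 (0.11), Ppm1m (0.12) and Usp20 (0.143). Nearest to Fabp3 were Cyp2u1 (0.198), Dtx4 (0.209) and Cavin1 (0.211), so that the pattern of Fabp3 had less close neighbours than that of Lpl. These distances are descriptions with no test.

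**Figure D5:**
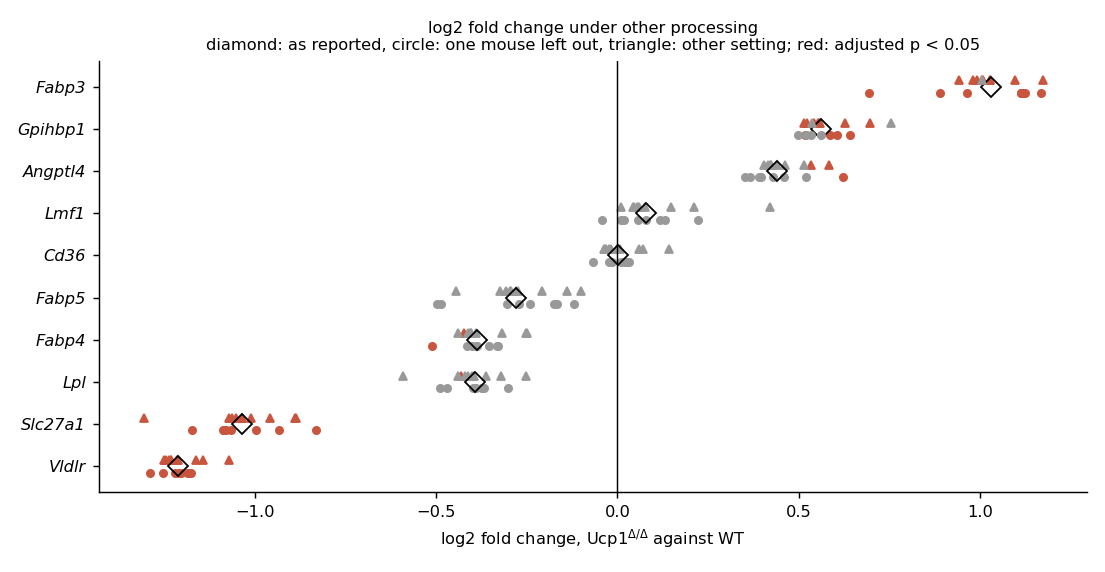
log2 fold change, Ucp1Δ/Δ against WT, of each of the 10 genes as reported (diamond), with 1 mouse left out (circles) and under the other settings (triangles), in red where the adjusted p is under 0.05. Vldlr and Slc27a1 stay under 0 and called throughout, Fabp3 and Gpihbp1 stay above 0 and lose calls in 1 and 6 settings, and Cd36 crosses 0.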

How the data were processed

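BAT of 4 WT and 4 Ucp1Δ/Δ mice was analysed. According to the study's methods the authors trimmed single-end reads (bbduk), used STAR for alignment to mm10 and counted them per gene with HTseq-counts, whereas the submitters' processing notes name Trimmomatic and HISAT2. The strand setting and the annotation release were not given in the sources used here. The deposited counts are whole numbers without normalization, and the deposited log2 values, which are log2(count / size factor + 1) with a single factor for each mouse, served for 1 alternative. Of 31053 identifiers, 30934 had a symbol in GENCODE annotation of GRCm38.

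Counts were filtered with filterByExpr, scaled by TMM and tested on genotype with edgeR 4.0.16 (R 4.3.3), with Benjamini-Hochberg adjustment over 8930 genes and a threshold of 0.05. Alternatives used limma 3.58.1 and DESeq2 1.42.0. Ratios within a mouse used a pseudocount of 0.5 and two-sided exact permutation tests, adjusted over 5 ratios. Tests were checked on simulated data. The members and lists were chosen with earlier results of these data known. Named are the 10 genes, Pnpla2, up to 6 called pathway genes in each direction, receptor, transporter, binding protein and nuclear receptor genes where needed, up to 3 genes of a marker list besides Ucp1, Adipoq and Pecam1, and the 3 genes most like Lpl, Fabp3 and Vldlr. A few genes of the pathway list are counted but not reported here by name. Lipa, Pcsk5, Cidec, Cfd, Cav1, Cav2, Aqp7 and Emcn were named after their values were seen. With 4 mice per genotype, edgeR's p-values set a difference against a spread between mice that is estimated in part from all genes tested. Those of the permutation tests rest on the ways in which the mice can be relabelled. Both concern these mice only.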

Additional observations from a re-analysis of the deposited data

Results flagged for a closer look

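In Ucp1Δ/Δ replicate 2 the log2 ratio of Fabp5 to Fabp4 lay apart from that of the other 3 Ucp1Δ/Δ mice, at -6.57 against -7.37 to -7.32. The gap to the nearest mouse was 0.938 of the whole range. This was 1 of 32 groups of 4 mice examined, where 1.6 would be expected to stand apart by chance, and no explanation was tested.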

How the results depend on the processing

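Vldlr, Slc27a1 and Pnpla2 were called lower in every alternative, and the 4 ratios other than Fabp5 to Fabp4 kept their direction in every alternative. With a mouse left out, Gpihbp1 to Lpl ran from 0.83 to 1.07, Angptl4 to Lpl from 0.71 to 1.04, Vldlr to Lpl from -0.91 to -0.73, Fabp3 to Fabp4 from 1.07 to 1.64 and Fabp5 to Fabp4 from -0.15 to 0.31. In the same fits 1345 to 2155 genes, 3 to 5 of the 10 genes and 12 to 15 of the pathway list were called. Higher genes ran from 945 to 1304 (10 genes: 1 to 3, pathway: 8 to 10) and lower ones from 400 to 851 (2 to 3, 4 to 5), the fewest lower without Ucp1Δ/Δ replicate 2. Lmf1 ran from -0.042 to 0.22 and Cd36 from -0.068 to 0.032. The log2FC of Cd36 under DESeq2's size factors (-0.017), a minimum of 1 count in any mouse (-0.023), DESeq2's Wald test (-0.036) and limma trend (-0.032) was also under 0. Total counts only gave 404 lower genes, a median log2FC of 0.13 and 78.5% of calls higher against 63.6%, with 3 of the 10 genes higher and 2 lower. At least 1 count in any mouse left 1 of the 10 genes higher. At least 10 counts in every mouse gave 1195 calls, 746 higher and 449 lower, and 2 lower in the pathway list. DESeq2's Wald test called 4 of the 10 genes lower. An absolute log2FC above 1 gave 1081 calls, 227 lower, 1 of the 10 genes higher, and 6 pathway calls, 2 higher. Leaving out the 2 mice of each genotype highest in muscle markers, chosen like the ratios to marker sums after seeing the data, gave 1025 calls, 760 higher and 265 lower, 2 of the 10 genes called and 0 higher, 9 pathway calls and 3 lower, and Cd36 at -0.034. Gpihbp1 and Fabp3 lost their calls there (adjusted p = 0.0573 and 0.0554). The cause of these changes was not tested, apart from the fewer mice or genes in some fits. Same-numbered mice deviated together with a mean correlation of 0.0654 (-0.196 to 0.304), and 1 of 4 WT mice was closest to its own number. The numbers were therefore not treated as pairs, although so few mice cannot exclude a pairing. With the replicate block 1719 genes and 4 of the 10 genes were called.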

Other observations

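As a description with no test, the spread between mice differed widely among the 10 genes. Among Ucp1Δ/Δ mice, Cd36 varied by 2.59% (SD over mean, n = 4) where counting of independent reads alone would give 2.64%, and Vldlr by 6.52% where counting gives 7.50%. Fabp3 varied by 43.4% beside 2.13% from counting, and Fabp4 by 17.6% beside 0.86%. In WT mice Fabp4 varied by 2.67%, the least of the 10 genes, and Fabp5 by 34.4%, the most.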
